A study of Mus musculus with 4 samples.

Results

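The core genes of autophagy were followed on expression arrays of organoids from mouse intestine, which are cultures of epithelium in a gel matrix. Members were taken by gene name: symbols that start with Atg and a digit, with Wipi, Map1lc3 or Gabarap, and a fixed set of further autophagy genes such as Ulk1, Becn1, Sqstm1 and Tfeb. The rule found 38 of the 18193 genes that 1 or more probe sets name alone, read by 93 of the 45101 probe sets on the array. Optn, a receptor that the rule also names, is not analysed here. Each gene is represented by its brightest probe set, chosen by the mean of log2(intensity + 16) over the 4 arrays. All 38 lay above the level filter (a highest intensity of at least 20.9, the median of all values). The set was drawn up with Atg9b in view, a gene already known to differ with treatment on these arrays, so its treatment values are given as a description with no test.

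The organoids carried floxed Apc alleles (Apc fl/fl) in all groups. At each time 1 group had received 4-hydroxytamoxifen (4OHT) during 24 h, which switches on Cre and recombines Apc, and the other was untreated. Collection was at day 4 or at day 6, and each of the 4 combinations was 1 array, so no group had replicates. Organoids with 4OHT are described as Apc-deficient in the labels. The sources used here name neither the Cre driver nor the deleted exons, no 4OHT-treated organoids without floxed Apc are among the arrays, and an effect of 4OHT itself cannot be told apart from that of recombination. Nothing states that they came from different cultures. Of 4 Apc probe sets 3 passed the level filter, and these differed between 4OHT and untreated arrays by -0.40 to 0.77 with no common sign; as the deleted part is not known, they do not check the labels.

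Autophagy encloses cytoplasm in a double membrane and delivers it to lysosomes. The ULK1 kinase complex starts the process, a class III phosphatidylinositol 3-kinase marks the membrane, ATG9 vesicles and ATG2 proteins supply lipid, and the ATG12 and ATG8 conjugation systems fix LC3 and GABARAP proteins to the growing membrane, where cargo receptors dock. In the intestine the pathway is best known from Paneth cells, whose granule secretion depends on ATG16L1, ATG5 and ATG7. Apc is a scaffold of the complex that degrades beta-catenin.

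The 2 mouse ATG9 genes, which encode the lipid scramblases of the vesicle pool, differ in the windows around their start sites. These are shown because Atg9b had the largest difference between treatments among the members and its paralog Atg9a did not share it. The windows hold 250 bases before to 50 after the start site, from RefSeq (GRCm38.p6), written 5′ to 3′ on the gene's strand with CpG dinucleotides in capitals. The Atg9b window is chr5:24392094-24392393 on the minus strand and that of Atg9a is chr1:75191961-75192260 on the minus strand.
Atg9b: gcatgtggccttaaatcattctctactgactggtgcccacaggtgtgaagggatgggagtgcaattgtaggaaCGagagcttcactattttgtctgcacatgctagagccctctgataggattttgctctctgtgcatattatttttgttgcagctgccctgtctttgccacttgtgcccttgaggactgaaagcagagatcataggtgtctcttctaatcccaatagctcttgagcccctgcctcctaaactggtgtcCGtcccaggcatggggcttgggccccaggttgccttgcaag
Atg9a: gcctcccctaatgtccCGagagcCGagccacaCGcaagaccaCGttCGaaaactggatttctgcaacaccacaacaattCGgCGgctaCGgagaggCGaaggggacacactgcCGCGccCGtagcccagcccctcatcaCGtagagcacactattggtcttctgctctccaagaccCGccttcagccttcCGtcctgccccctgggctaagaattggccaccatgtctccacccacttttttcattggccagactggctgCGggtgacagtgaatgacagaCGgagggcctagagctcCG
The Atg9b window held 2 CpG and that of Atg9a 18. Over the 39 windows of the 31 members with an entry, the median was 20 CpG with a range of 1 to 55, and only 1 window (of Vmp1) held fewer than that of Atg9b. Of all 32851 windows, whose median was 7 CpG, 14.1% held fewer than that of Atg9b. Members with no entry were Atg12, Atg16l1, Becn1, Map1lc3a, Pik3c3, Rb1cc1 and Wdfy3.

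A set of 3 motifs was searched on both strands in the same windows. The E-box core CACGTG, which lies within the longer CLEAR motif and so overlaps it, was found in 4 of the 39 member windows (10.3%), those of Atg3, Atg5, Atg7 and Atg14, against 7.15% of all windows. The palindromic CLEAR motif, the element bound by TFEB, was in none of the member windows and in 0.326% of all. The TCF/LEF motif CTTTGAT was in 2 member windows (5.13%), of Ambra1 and Atg4a, against 3.73% of all. Neither ATG9 window held any of the 3 motifs. These matches describe letters in a short window and are not binding sites.

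Atg9b (chromosome 5, 24384181 to 24392143) had an intensity of 140 on the untreated array and 723 on the 4OHT array of day 4. At day 6 the values were 42.4 untreated and 243 with 4OHT. Both 4OHT arrays were thus above both untreated arrays, and within each treatment the day 6 array was the lower. On the log2(intensity + 16) scale, used for all differences below and which understates those of dim genes, 4OHT was higher by 2.24 at day 4 and 2.15 at day 6, or 4.73-fold and 4.43-fold. This rests on 1 probe set. The other probe set of the gene stayed under the level filter, with intensities from 10.3 to 19.1 and differences of -0.33 and 0.01. With both averaged, the differences were 0.95 and 1.08.

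The gene spans of Atg9b and Nos3, the endothelial nitric oxide synthase gene, overlap by 294 bases in RefSeq, which lists Nos3as among the names of Atg9b. Nos3 intensities were 35.0 untreated and 28.2 with 4OHT at day 4, and 18.5 and 19.4 at day 6. Nos3 thus lacked the higher 4OHT values of Atg9b on both days, while like Atg9b it was lower at day 6 in both arms, with differences of -0.56 and -0.32 (not past the test). Its day 6 values lay under the filter level of 20.9 and its day 4 values not far above it, so this comparison carries little weight. Abcb8, a mitochondrial transporter gene 1537 bases away on the other side, differed by 0.05 and -0.27 on the days in turn. None of the 8 tested genes of a list of 9 neighbours passed limma's test for 4OHT (Benjamini-Hochberg adjusted over all genes; 2 had an unadjusted p under 0.05), and Asic3 was under the filter. Agap3 had the largest mean difference among them, 0.60 ± 0.21 (SE, adjusted p = 0.168), Cdk5 differed by 0.49 ± 0.22, Fastk by 0.38 ± 0.21 and Kcnh2 by 0.31 ± 0.21. Slc4a2 and Tmub1 differed by 0.01 ± 0.21 and -0.01 ± 0.21.

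**Figure D1:**
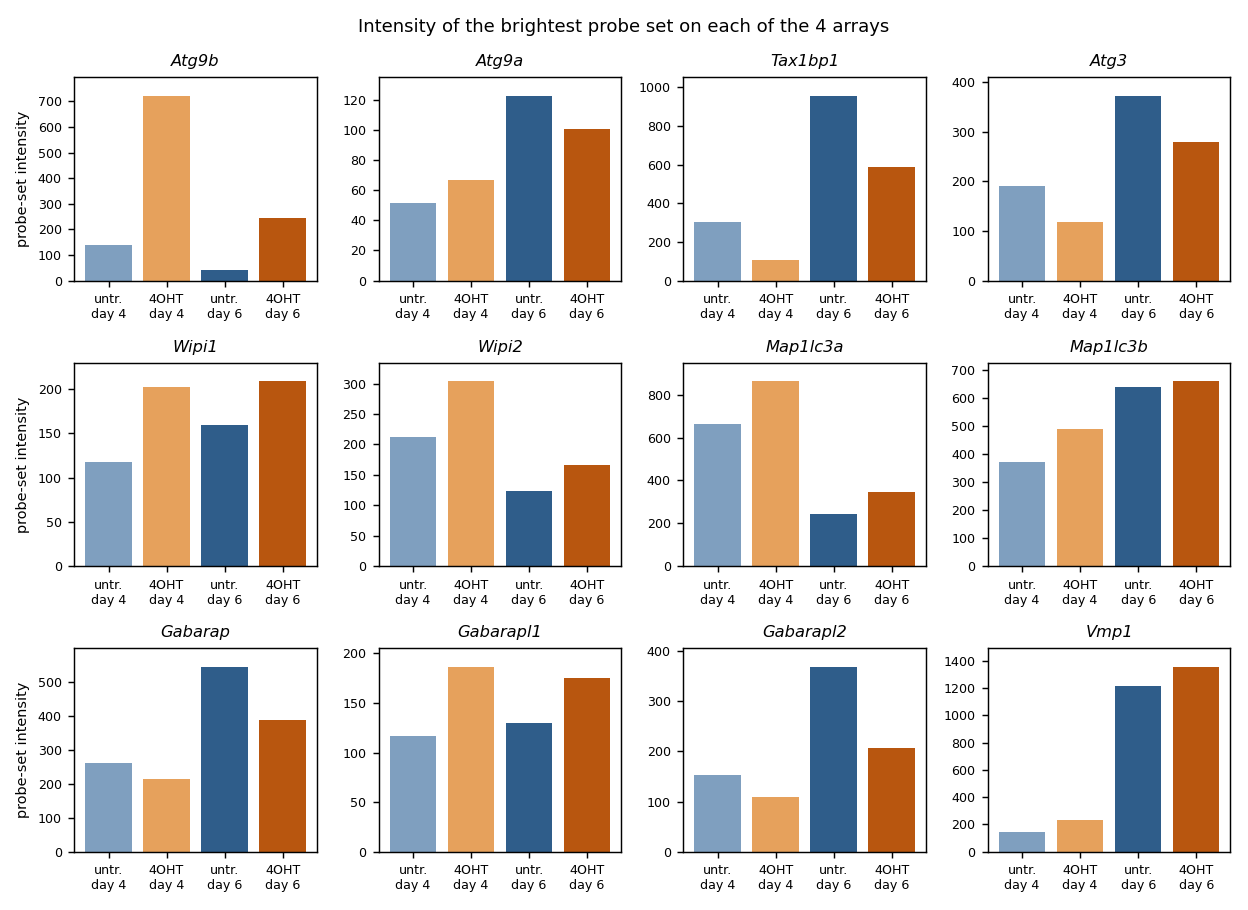
Probe-set intensity (linear axis from 0, 1 bar per array, no replicates, a different scale in each panel) of 12 autophagy genes. Atg9b was higher on both 4OHT arrays, at 723 and 243, than on either untreated array, at 140 and 42.4, while Tax1bp1 was lower with 4OHT within each day.

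The comparison of 4OHT with untreated organoids asks what changed after induced recombination of Apc. Apart from Atg9b, few autophagy genes differed. In limma's test with day as an additive term, 1 of the other 37 members fell (Tax1bp1) and none rose, at an adjusted p under 0.05 over all 13192 genes past the filter. Over all those genes 2.25% fell and 0.97% rose, together 3.22%, so the members' counts lay near the background. At an unadjusted p under 0.05, 4 members were lower (Tax1bp1, Gabarapl2, Atg3 and Ulk2) and 3 higher (Wipi1, Gabarapl1 and Atg5), beside 13.9% of all genes in either direction. The median member difference was 0.15 at day 4 and -0.0058 at day 6, against 0.06 and -0.0044 over all genes tested. The test's 1 residual degree of freedom comes from how far the days disagree for a gene. To this limma adds 15.2 prior degrees of freedom from the spread pooled over all genes. The p-values and SEs thus rest mostly on that pooled spread, and they measure the spread between these arrays only.

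At 2-fold, with 1 array against 1 and no test, only Atg9b was higher and only Tax1bp1 lower at day 4, where 1% of all genes were higher and 1.22% lower. At day 6 only Atg9b was higher and no member was lower, against 0.879% and 2.97% of all genes. The pairs of the 2 days share no array. Of the 38 members, 15 were higher with 4OHT on both days, 11 lower on both and 12 did not keep 1 direction, where 32% of all genes were higher on both days and 26% lower. The share in the same direction was 68.4%, against 58% of all genes.

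**Figure D2:**
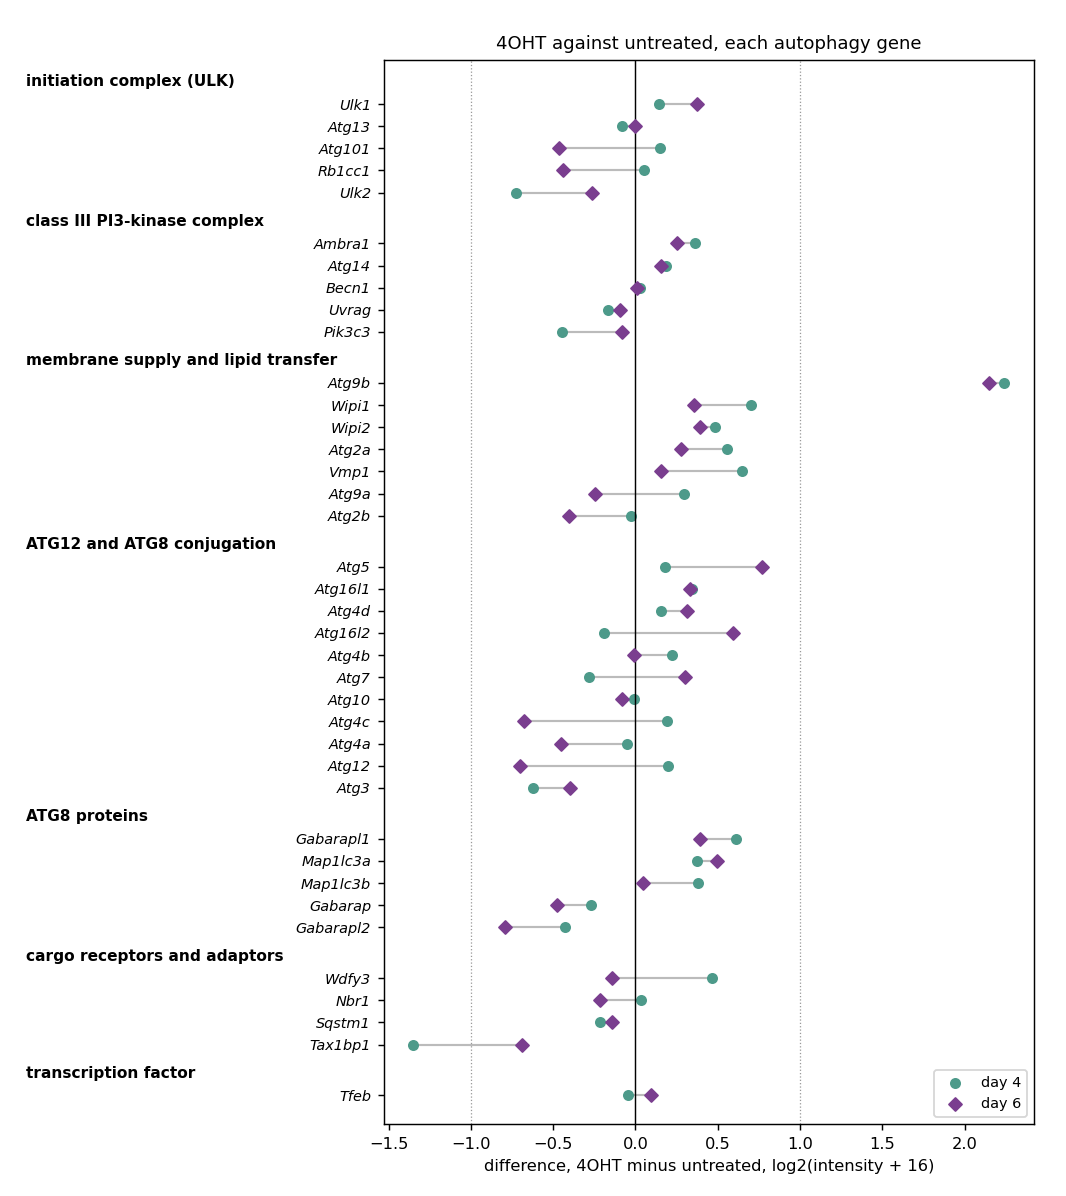
Difference between the 4OHT and the untreated array (x axis, log2(intensity + 16)) at day 4 (circles) and day 6 (diamonds) for each of the 38 genes, grouped by role, with dotted lines at 2-fold. Atg9b stands apart at 2.24 and 2.15, and Tax1bp1 is the lowest at day 4 with -1.35.

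Among the cargo receptors, Tax1bp1 (chromosome 6, 52713692 to 52766780), a ubiquitin-binding receptor that also restrains inflammatory signalling, had intensities of 302 untreated and 109 with 4OHT at day 4. At day 6 they were 957 and 588. The 4OHT array was the lower on each day, although the groups overlap across days because both day 6 arrays were brighter. It fell by 1.02 ± 0.22 with 4OHT (SE, limma adjusted p = 0.0171), with differences of -1.35 and -0.69. Its next brightest probe set had 69.2 untreated and 41.1 with 4OHT at day 4, then 241 and 127 at day 6. Another had 28.2 and 19.1, then 40.1 and 20.7. These 3 probe sets past the filter thus gave the same direction on both days. The adjusted p was 0.12 with the mean of all probe sets, 0.0595 after quantile normalization, 0.204 and 0.197 with pseudocounts of 1 and 64, and 0.28 without the level filter, so the call depends on those choices.

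The other receptors showed no such difference. Sqstm1, which encodes the ubiquitin-binding receptor p62, had intensities of 121 and 102 at day 4, untreated and 4OHT, and 133 and 119 at day 6 (-0.18 ± 0.21, adjusted p = 0.799). Nbr1, a receptor related to p62, differed by -0.09 ± 0.21, and Wdfy3, a large adaptor for aggregate clearance, by 0.16 ± 0.22, with 0.47 at day 4 and -0.14 at day 6.

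The 5 genes of the ATG8 family, whose products are attached to the autophagosome membrane, had differences of both signs, and none passed the test. Gabarapl2 had intensities of 152 and 109 at day 4, untreated and 4OHT, and 369 and 206 at day 6. It was lower with 4OHT on both days (-0.61 ± 0.21, adjusted p = 0.166). Gabarap went the same way, with 261 and 213, then 545 and 387 (-0.38 ± 0.21, adjusted p = 0.466). Gabarapl1 was higher on both days, at 116 and 187 at day 4 and at 130 and 175 at day 6 (0.50 ± 0.21, adjusted p = 0.282). Map1lc3a, which encodes LC3A, had 663 and 864 at day 4 and 242 and 348 at day 6 (0.43 ± 0.21, adjusted p = 0.369). Map1lc3b, which encodes LC3B, the usual marker protein of autophagosomes, had 371 and 488 at day 4 and 638 and 660 at day 6 (0.21 ± 0.21, adjusted p = 0.75). So within the family the 2 GABARAP genes first named were lower and the other 3 genes higher on both days, by less than 2-fold each.

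Probe sets of 1 gene did not always give the same picture. The brightest Map1lc3a probe set is of the _x_at kind and that of Gabarapl1 of the _s_at kind, which can bind more than 1 transcript; the other Map1lc3a probe set differed by 0.69 and 0.27, and the other Gabarapl1 probe set by 0.42 and 0.08. For Map1lc3b, 2 of the 4 probe sets were higher with 4OHT on both days, 1 was higher at day 4 (0.14) and lower at day 6 (-0.12), and the dimmest was lower on both. Of 22 members with another probe set past the filter, 11 had every such probe set in the directions of the brightest on both days.

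**Figure D3:**
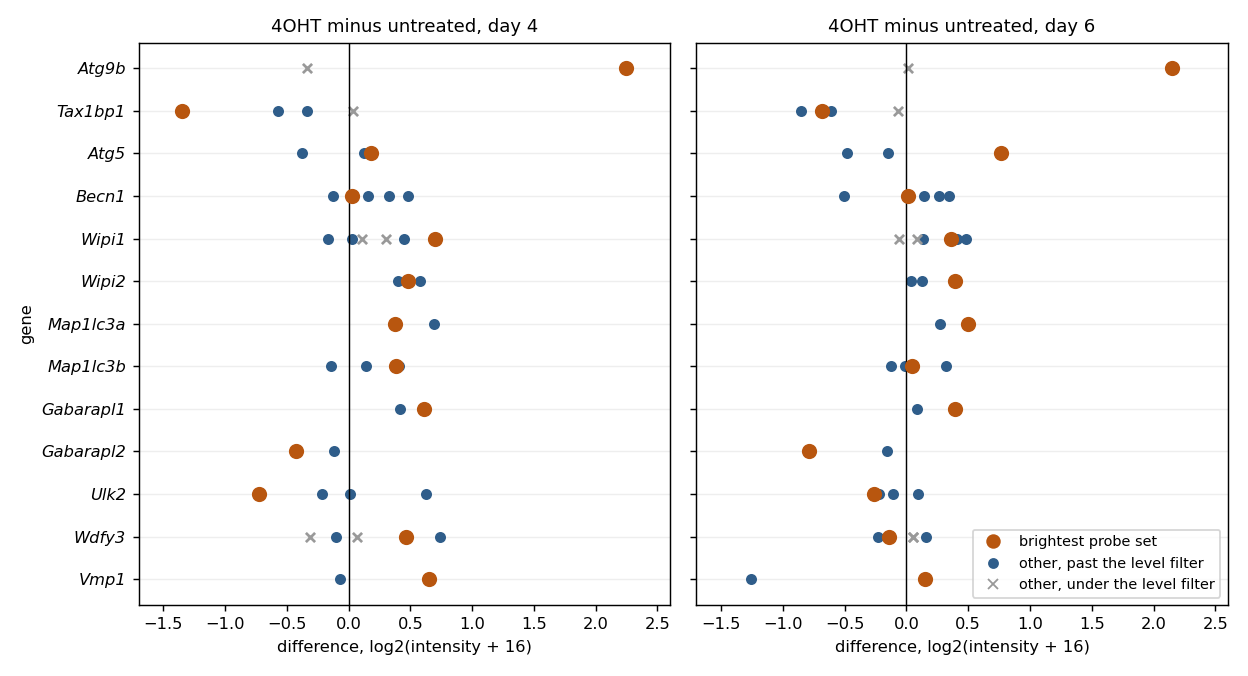
Difference between the 4OHT and the untreated array (x axis, log2(intensity + 16); left panel day 4, right panel day 6) for every probe set of 13 autophagy genes, with the brightest probe set of each gene large and orange and those under the level filter as crosses. The Tax1bp1 probe sets past the filter all lie below 0, those of Wipi2 all above 0, and those of Atg5 and Vmp1 on both sides at day 6.

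Of the membrane supply genes, Atg9a, which makes the widely expressed ATG9 protein, had intensities of 51.6 and 67.0 at day 4, untreated and 4OHT, and 123 and 101 at day 6. Its differences were 0.29 and -0.25, with a mean of 0.02 ± 0.22 (adjusted p = 0.984), so unlike Atg9b it had no common direction; the difference between the paralogs was not tested. Wipi1 and Wipi2 bind the phosphoinositide made by the class III kinase. Wipi1 had 118 and 202 at day 4 and 159 and 209 at day 6 on an _s_at probe set (0.53 ± 0.21, adjusted p = 0.255). Of its 3 other probe sets past the filter 2 were higher with 4OHT on both days. The remaining one, the next brightest, differed by -0.17 and 0.48. Wipi2 had 213 and 304 at day 4 and 123 and 166 at day 6 (0.44 ± 0.21, adjusted p = 0.366), and its 3 probe sets were each higher with 4OHT on both days. Atg2a, a lipid transfer protein gene, differed by 0.56 and 0.28, and its relative Atg2b by -0.03 and -0.40. Vmp1, whose product remodels the endoplasmic reticulum during autophagosome formation, differed by 0.65 and 0.15 on its brightest probe set and by -0.07 and -1.26 on its other.

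The initiation complex and the class III kinase complex held no gene past the test in this contrast. Ulk2, a kinase related to Ulk1, had 46.0 and 21.5 at day 4, untreated and 4OHT, and 41.7 and 32.2 at day 6 (-0.49 ± 0.22, adjusted p = 0.312), but its other probe sets did not all go that way. Ulk1 differed by 0.26 ± 0.21, the scaffold gene Rb1cc1 by -0.20 ± 0.22, Atg13 by -0.04 ± 0.21 and Atg101 by -0.16 ± 0.22. In the kinase complex, Ambra1, a regulator of Beclin 1, had 41.7 and 58.2 at day 4 and 60.5 and 75.2 at day 6 (0.31 ± 0.21, adjusted p = 0.577). Becn1, which encodes Beclin 1, had 308 and 314 at day 4 and 938 and 946 at day 6, nearly equal within each day (0.02 ± 0.21). Its next brightest probe set differed by -0.13 and -0.50. The catalytic subunit gene Pik3c3 differed by -0.26 ± 0.21, Uvrag by -0.13 ± 0.21 and Atg14 by 0.17 ± 0.21.

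In the conjugation systems, Atg3, the E2-like enzyme that passes ATG8 proteins to lipid, had 190 and 118 at day 4, untreated and 4OHT, and 373 and 279 at day 6. It was lower with 4OHT on both days without passing (-0.51 ± 0.21, adjusted p = 0.273). Atg16l1, the subunit that places the conjugation machinery on the membrane, had 101 and 133 at day 4 and 141 and 182 at day 6 (0.34 ± 0.21, adjusted p = 0.525). Atg5 had 649 and 738 at day 4 and 160 and 284 at day 6 on an _s_at probe set (0.47 ± 0.22, adjusted p = 0.349). Its other probe sets differed by 0.13 and -0.15, and by -0.38 and -0.48. Atg7, the E1-like enzyme of both systems, differed by 0.01 ± 0.22, and Atg10, the E2-like enzyme for ATG12, by -0.04 ± 0.21. Of the ATG4 proteases, Atg4a differed by -0.25 ± 0.21, Atg4b by 0.11 ± 0.21, Atg4c by -0.24 ± 0.23 and Atg4d by 0.23 ± 0.21. Atg12 and Atg16l2 had differences of opposite sign on the 2 days, with means of -0.25 ± 0.24 and 0.20 ± 0.23. Tfeb, a transcription factor of lysosome and autophagy genes, had 53.1 and 50.8 at day 4 and 38.6 and 42.3 at day 6 (0.02 ± 0.21, adjusted p = 0.983).

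Genes that serve the pathway outside the core set were followed in 6 lists with 109 entries, of which 102 were measured and 101 tested. With 4OHT 1 of them rose and 2 fell, beside 0.97% and 2.25% of all genes. These 3 calls, like all 425 of the contrast, are lost with no day term, with no level filter and at a pseudocount of 64, and a pseudocount of 1, which calls 47 genes, loses these 3 too. With the mean of all probe sets Bnip3 stays past the test, and the adjusted p is 0.111 for Trp53inp1 and 0.12 for Prkaa2. Trp53inp1, a p53 target whose product binds ATG8 proteins, rose by 1.02 ± 0.23 (adjusted p = 0.0208), with 116 untreated and 339 with 4OHT at day 4, then 195 and 308. The mitophagy receptor gene Bnip3 fell by 1.52 ± 0.24 (adjusted p = 0.0016), with 414 and 196, then 315 and 65.3. Prkaa2, which encodes a catalytic subunit of the energy sensor AMPK, fell with 4OHT (adjusted p = 0.00626), with 41.6 and 11.4, then 91.7 and 33.4, differences of -1.07 and -1.13. No lysosome gene of 27 passed (3 higher and 2 lower at an unadjusted p under 0.05), and the proton pump gene Atp6v1a, whose smaller difference of the 2 days was the largest, gave -0.73 ± 0.22 (adjusted p = 0.0873). The calcium channel gene Mcoln1 had a mean difference of 0.74 ± 0.22 (adjusted p = 0.0865). None of 13 fusion genes passed (2 lower unadjusted, and Rab2a at -0.62 ± 0.21, adjusted p = 0.148). The last list held transcription factor genes and the regulator gene Flcn. None of its 7 tested genes passed (1 higher unadjusted, Zkscan3 at 0.69 ± 0.23, adjusted p = 0.14).

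Cell type markers and control probe sets also differed between the same arrays. Of 13 enterocyte markers measured 7 fell with 4OHT, and their summed intensity was 3969 untreated and 1624 with 4OHT at day 4, then 15337 and 6945. All 5 Paneth cell markers measured, of 10 listed, rose, with sums of 28964 and 46532, then 12502 and 43260. Of 9 stem cell markers 5 rose, of 9 goblet cell markers tested 4 rose and 2 fell, and of 10 enteroendocrine markers 1 rose. None of 8 general epithelial and 6 tuft cell markers tested passed. Of all genes tested 0.97% rose and 2.25% fell. All these marker calls are lost if the day term or the level filter is dropped or the pseudocount is 64. With a pseudocount of 1 the enterocyte count was 4 and the Paneth, stem and goblet cell counts 0. After quantile normalization 7 enterocyte markers fell, and 3 Paneth and 3 stem cell markers rose. With the mean of all probe sets these counts were 9, 4 and 2 in that order, and without _x_at and _s_at probe sets 6, 3 and 5. Summed intensities of fibroblast and muscle (131 to 230), endothelial (51.5 to 103) and immune cell markers (152 to 265) were low on all arrays. Of the markers measured, 5 of 9, 3 of 5 and 5 of 7 in turn were past the level filter. Their highest intensities were 59.4, 46.6 and 99.0, and none passed the test for 4OHT. The others, Col1a2, Col3a1, Lum, Myh11, Tie1, Emcn, Ptprc and Itgam, were under the level filter on all arrays. The 3' minus 5' difference of Actb, a measure of RNA integrity, was larger by 0.94 and 0.62 on the 4OHT arrays of the days in turn, and that of Gapdh by 0.87 and 0.56. The hybridization controls differed between 4OHT and untreated arrays by -0.38 at day 4 and 0.91 at day 6, and the poly-A controls by -0.37 and 1.11. The part of these differences in the values of Atg9b, Tax1bp1 and the other members was not tested, and fewer cells of a type and less RNA per cell cannot be told apart in such bulk samples.

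The comparison of day 6 with day 4 was not used to choose the genes, and it held far more calls. In the same limma fit, 18 of the 38 members rose from day 4 to day 6 (47.4%) and 5 fell (13.2%). Over all genes 35.1% rose and 18.8% fell, so much of the array moved between the days. The median member difference was 0.47, against 0.10 over all genes. Members and all genes were not matched for brightness. Over the 8544 genes with a highest intensity of at least 65.1 the median was 0.53, so the members' median was not above that of bright genes. In untreated organoids 12 members were at least 2-fold higher at day 6 and 3 lower (24.1% and 5.29% of all genes), and in 4OHT organoids 7 were higher and 3 lower (16.4% and 2.69%). The scaling between days is unknown. The hybridization controls were lower at day 6 by 2.36 on the untreated and 1.07 on the 4OHT arrays. In the same order, day 6 minus day 4 was -2.42 and -0.95 for the poly-A controls. For the 3' minus 5' difference it was -1.24 and -1.56 for Actb, and -0.56 and -0.87 for Gapdh. Whether scaling or RNA integrity adds to these calls was not tested. After quantile normalization, which moved the median of all genes from 0.10 to -0.16, 11 members rose and 9 fell. After median centring, which moved it to 0.25, 22 rose and 4 fell. Of all 13192 genes, 6011 and 7018 were called in either direction under these settings in turn, against 7105 in the main fit.

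Atg9b fell from day 4 to day 6 by 1.47 ± 0.21 (limma adjusted p = 3.29e-05). The drop was 1.42 in untreated and 1.51 in 4OHT organoids, so the level went down over time in both arms while the gap between the arms stayed at 2.24 and 2.15. Its paralog Atg9a rose by 0.76 ± 0.22 (adjusted p = 0.00831), although not after quantile normalization (0.34, adjusted p = 0.211).

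The 4 other members that fell were Atg5, Map1lc3a, Wipi2 and Atg10. Map1lc3a fell by 1.34 ± 0.21 (adjusted p = 7.63e-05), from 663 to 242 untreated and from 864 to 348 with 4OHT; on its _at probe set the mean difference was -0.51 (adjusted p = 0.0584). Wipi2 fell by 0.77 ± 0.21 (adjusted p = 0.00615) and Atg10 by 0.54 ± 0.21 (adjusted p = 0.0397). Both other Wipi2 probe sets were higher at day 6 in untreated organoids, by 0.14 and 0.12, and lower in 4OHT organoids. The Atg10 call is lost under median centring (-0.39, adjusted p = 0.129), with pseudocounts of 1 and 64 (adjusted p = 0.0554 and 0.0622) and with the stricter level filter (0.0505). Atg5 fell by 1.62 ± 0.22 (adjusted p = 2.16e-05) on its brightest probe set. Another Atg5 probe set went the opposite way, from 30.7 to 136 in untreated and from 19.9 to 92.7 in 4OHT organoids, so the direction of Atg5 over time depends on the probe set.

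Of those that rose, Vmp1 had the largest difference, 2.70 ± 0.22 (adjusted p = 2.31e-07), from 143 to 1218 in untreated and from 234 to 1356 in 4OHT organoids. The Vmp1 gene also hosts the microRNA gene Mir21 at its 3' end, and its other probe set differed by 1.21 and 0.01. Tax1bp1 rose by 1.95 ± 0.22, by 1.61 untreated and 2.28 with 4OHT. Nbr1, from 194 to 770 and from 198 to 662, rose by 1.78 ± 0.21, and Becn1, from 308 to 938 and from 314 to 946, by 1.55 ± 0.21. Of the 4 receptor and adaptor genes 3 therefore rose, Wdfy3 by 1.24 ± 0.22, while Sqstm1 did not pass (0.15 ± 0.21, adjusted p = 0.535). The other Wdfy3 probe sets past the filter differed by 0.48 untreated and -0.49 with 4OHT, and by -0.16 and 0.11. Of the 4 other Becn1 probe sets past the filter, 2 were higher at day 6 in both arms.

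The initiation kinase gene Ulk1 rose by 0.96 ± 0.21 and its partner Rb1cc1 by 0.86 ± 0.22, while Ulk2 (0.13 ± 0.22), Atg13 (-0.28 ± 0.21) and Atg101 (0.48 ± 0.22) did not pass. The other Ulk1 probe set past the filter went the opposite way, by -0.41 untreated and -0.32 with 4OHT, and that of Rb1cc1 differed by 0.15 and -0.26. In the class III kinase complex Pik3c3 rose by 1.14 ± 0.21 and Uvrag by 0.83 ± 0.21, beside Becn1. In the conjugation systems Atg3 rose by 1.03 ± 0.21, Atg12 by 1.12 ± 0.24, Atg4c by 1.14 ± 0.23 and Atg4a by 0.65 ± 0.21. Atg2b, of the membrane supply genes, rose by 0.91 ± 0.21. Its day 4 intensities, 14.8 untreated and 14.3 with 4OHT, lay under the filter level of 20.9. Atg2b thus passed the filter only through its day 6 arrays, at 50.1 and 34.0. Second probe sets of Atg12 (0.05 and -0.36), Atg2b (-0.23 and 0.28) and Gabarapl2 (-0.05 and -0.08) were not higher at day 6 in both arms. Of the 22 members with another probe set past the filter, 7 had all of them in the day directions of the brightest. Of the ATG8 family, Gabarapl2 rose by 1.01 ± 0.21, Gabarap by 0.92 ± 0.21 and Map1lc3b by 0.59 ± 0.21, against the drop of Map1lc3a, and Gabarapl1 did not pass (0.03 ± 0.21). The family thus held values of both signs in this contrast too. Of the 23 calls for day, 8 were kept under every alternative run, those of Atg9b, Vmp1, Tax1bp1, Nbr1, Becn1, Pik3c3, Uvrag and Atg4c, and 15 were lost under at least 1. Pik3c3 was run under 8 alternatives and the others kept under 9, as the stricter level filter leaves it out. Its day 4 intensities, 14.9 untreated and 6.66 with 4OHT, lay under the filter level of 20.9. Like Atg2b, Pik3c3 thus passed the filter only through its day 6 arrays.

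**Figure D4:**
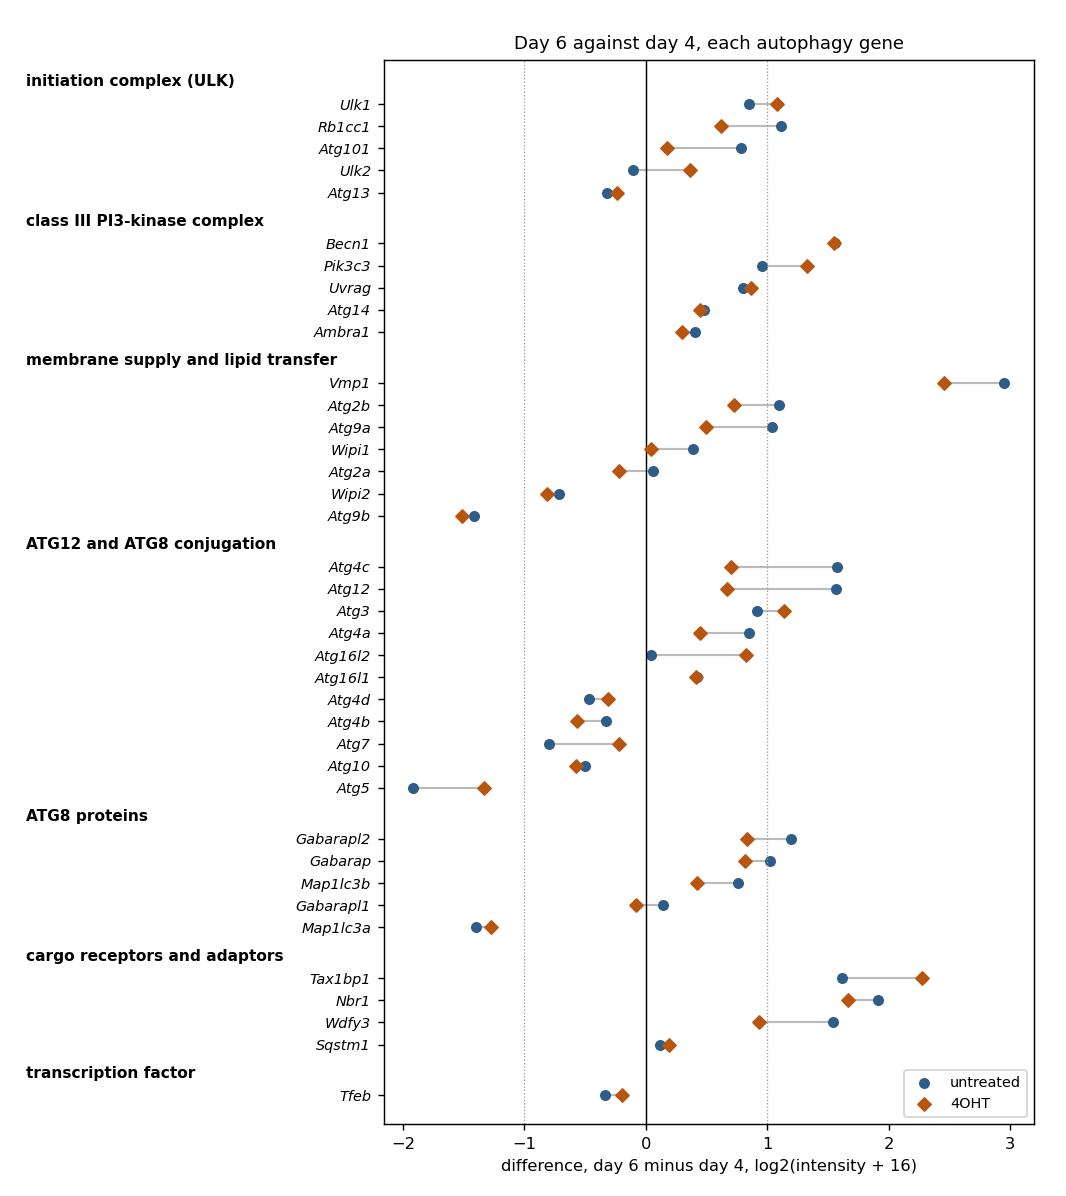
Difference between day 6 and day 4 (x axis, log2(intensity + 16)) in untreated (circles) and 4OHT-treated organoids (diamonds) for each of the 38 genes, grouped by role, with dotted lines at 2-fold. Vmp1 is highest at 2.95 and 2.46, while Atg9b, Map1lc3a and Atg5 lie below -1 in both arms.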

How the data were processed

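Per the labels' protocols, 100 ng of RNA went into a 3' in vitro transcription labelling kit and the product onto Affymetrix arrays, so probe sets read mostly 3' ends. The deposited values are linear intensities, 1 per probe set and array, from 2.73 to 23910; the authors' background correction, scaling and summarisation are not given in the sources used here. Array medians were 21.9 to 22.0 at day 4 and 19.3 to 19.5 at day 6. The number of arrays limits the precision.

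Of 45101 probe sets, 34945 that are no controls name 1 gene in the platform annotation and 932 name several. The gene table held 18193 genes, of which 13192 passed the level filter, and all 38 members matched a current RefSeq gene record. Values were moved to log2(intensity + 16). limma 3.58.1 in R 4.3.3 (lmFit, eBayes) modelled each gene on treatment plus day, with Benjamini-Hochberg adjustment over all genes past the filter, at a threshold of 0.05, with 1 residual and 15.2 prior degrees of freedom. Contrasts of 1 array against 1 have no test. On simulated data for the 4OHT effect over 13192 genes, 71 of 100 genes given a log2 change of 1 were called. With a change of 2 it was 100 of 100, and with none 6 of 12992. The simulated variances came from limma's own fitted prior, with independent normal noise, no day effect and the same change on both days. These counts therefore do not show how the test performs on the real arrays. Tables were handled in Python 3.11.15 with pandas 2.3.3 and numpy 2.4.6, and figures drawn with matplotlib 3.10.9.

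The members, roles and lists were chosen with earlier results of these data known. Every member may be named; members given array by array were both ATG9 genes, the ATG8 family, members past the test and the member of each role with the largest difference kept on both days, and of other lists the genes past the test or, with none, the 1 with the largest such difference, with all neighbours of Atg9b. Such a difference is ranked by the smaller of the 2 days. Sqstm1, Wipi1, Atg16l1, Tfeb, Nos3 and Mcoln1 were added after their values were seen. Some members past the test for day are given by their difference only. Alternatives were the level filter, probe set choice, centring, quantile normalization, pseudocount, fold threshold, adjusted p threshold, a variance trend, no day term and leaving out arrays.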

Additional observations from a re-analysis of the deposited data

Results flagged for a closer look

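For 7 members the 4OHT array was above the untreated array on one day and below it on the other, by at least 0.1 on the log2 scale each time. With 1 array per group the difference between the days was not tested. Atg12 differed by 0.20 at day 4 and -0.70 at day 6, a change of -0.89, and Atg4c by 0.19 and -0.68, a change of -0.87. Atg101 differed by 0.15 and -0.46 (-0.61), Wdfy3 by 0.47 and -0.14 (-0.61) and Atg9a by 0.29 and -0.25 (-0.54). Atg16l2 went the other way, from -0.19 to 0.59 (0.78), as did Atg7, from -0.28 to 0.30 (0.58).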

How the results depend on the processing

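The labels give no replicate numbers to pair by. The main analysis compared treatments within days, through the day term. The count of members other than Atg9b that rose with 4OHT was 0 under every alternative run. The count that fell was 1 in the main analysis and 0 without the level filter, with the mean of all probe sets, after quantile normalization, with pseudocounts of 1 or 64 and with no day term. Leaving out single arrays, with no day term, gave 0 to 0. From day 4 to day 6, 13 members rose and 3 fell with averaged probe sets, while 11 rose and 9 fell after quantile normalization. Of all genes tested, 6200 of 12175 and 6011 of 13192 were called in either direction under these settings in turn. Without _x_at and _s_at probe sets Wipi1 turned to -0.90 over time (adjusted p = 0.00399), read by another probe set. At day 4 the 2-fold counts were 0 higher and 0 lower with averaged probe sets, and 3 lower with a pseudocount of 1. At 1.5-fold they were 4 higher and 3 lower at day 4 and 3 higher and 4 lower at day 6, and at 3-fold 0 were lower at day 4. The Atg9b difference was 1.95 and 1.53 on the days in turn with a pseudocount of 64, and 2.49 at day 6 with a pseudocount of 1. Signs of members not past the test turned for 6 members with 4OHT and 5 over time under 1 or more alternatives. Causes were not tested.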
